A study of Sus scrofa with 4 samples.

Results

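The genes described here encode molecular chaperones, proteins that help other proteins fold, keep them soluble and carry them to the compartment where they work. They were chosen by symbol: heat shock protein genes of the HSPA, HSPB, HSPD, HSPE, HSPH and HSP90 families, the DNAJA, DNAJB and DNAJC genes of J-domain co-chaperones, the CCT2 to CCT8 and TCP1 genes of the cytosolic chaperonin, and the numbered PFDN genes of prefoldin. The rule found 111 transcript rows of 84 genes, of 25560 gene names in all. RNA had been sequenced from porcine (Sus scrofa) embryos at the 4-cell stage, when stored oocyte RNA is still present and transcription from the embryo's own genome begins. There were 2 libraries labelled as TFAP2C knockdown (titled SiTF, genotype TFAP2C KD, treatment siRNA injection) and 2 libraries labelled as control (genotype and treatment Control). TFAP2C encodes the transcription factor AP-2 gamma. The treatment protocol given for all 4 libraries is injection of small interfering RNA into the cytoplasm, and the labels do not say what the control embryos received. Breed, the origin of the oocytes, the way the embryos were made and the number of embryos in a library are not given in the labels. Separate embryo pools are not stated for the libraries of a group, so a p-value reflects how far these libraries vary, and that variation may be technical.

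Chaperones work in compartments. In the cytosol, HSP70 proteins such as HSPA8 bind unfolded stretches in cycles of ATP hydrolysis that J-domain proteins start and exchange factors such as HSPH1 reset. HSP90 proteins finish the folding of kinases and receptors, and prefoldin hands actin and tubulin to the ring-shaped chaperonin CCT, also called TRiC. The endoplasmic reticulum has its own HSP70, HSPA5 (BiP, GRP78), and its own HSP90, HSP90B1 (GRP94), and the mitochondrial matrix has HSPA9 (mortalin) and the HSPD1 and HSPE1 chaperonin. In mouse embryos HSP70 transcripts are among the earliest products of genome activation.

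The row of the targeted gene cannot be used as a check of the labels. As deposited, TFAP2C stood at 0.448 and 3.11 FPKM in labelled knockdowns 1 and 2, against 14.7 and 7.78 FPKM in labelled controls 1 and 2 (FPKM is fragments scaled to transcript length and to library size). The coverage of a transcript divided by its FPKM should be a single constant in a library, and in the TFAP2C row those constants are exchanged between the groups. In the rows of the chaperone genes above 0.01 FPKM, 82 to 89 a library, the constant was that of the row's own library within a relative 2.07e-05. Libraries are therefore called by their labels, and every difference is labelled knockdown minus labelled control. All 14 oocyte and early embryo markers, such as BTG4 and BMP15, reached 1 FPKM in every library, except ZAR1 in labelled knockdown 2 (0.853 FPKM). Their summed FPKM was 3530 and 4856 in labelled knockdowns 1 and 2, against 7460 and 7131 in labelled controls 1 and 2. The 17 cumulus and granulosa markers matched, of 21 listed, summed to 21.5 and 15.2 FPKM, against 20.5 and 14.7 FPKM. From 3 to 5 of them reached 1 FPKM in a library, among them INHBA (4.29 to 7.87 FPKM) and FST (2.96 to 9.83 FPKM). PTGS2 and AMH were listed at 0 in all 4 libraries. The 13 protein-coding genes of the mitochondrial genome held 39.9% and 26.9% of all transcripts in labelled knockdowns 1 and 2, against 18.5% and 24.1% in labelled controls 1 and 2. The part of the oocyte marker sum and of the mitochondrial share in the results below was not tested. In bulk embryo RNA, fewer cells or stored transcripts of a kind and less RNA per cell cannot be told apart.

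Few chaperone genes passed the test between the groups. Of the 84 genes, 62 averaged 1 FPKM or more across all 4 libraries and were tested. HSPA5 rose, and CCT6B passed as lower with a listed 0 in both labelled knockdowns, so that 3.23% of the tested chaperone genes passed, against 6.57% of the 9850 genes tested (limma, Benjamini-Hochberg adjusted p under 0.05, over all genes). For rises alone the share of all genes was 5.11% and for falls alone 1.46%, against 1.61% of the chaperone genes each way. CCT6B met the minimum for testing through the labelled controls alone, and a listed 0 can be a failed estimate, so its call is not read as a fall. It remains in the counts, shares and medians given here and for the CCT class. The median log2 fold change on the log2(FPKM + 1) scale, which understates changes of low genes, was -0.087 over the 62 genes and -0.13 over all genes tested. In 17 genes (27.4%) both labelled knockdowns lay above both labelled controls, and in 21 genes (33.9%) both lay below. The same held for 24.7% and 35.8% of all genes tested, so the chaperone genes were close to the background in both directions. Without adjustment, 18 chaperone genes had a limma p under 0.05 (10 higher and 8 lower), which is 29.0% of those tested, against 27.9% of all genes (14.0% higher and 13.9% lower). The standard error of a fold change was 0.26 to 0.59 (median 0.31) on that scale.

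**Figure D1:**
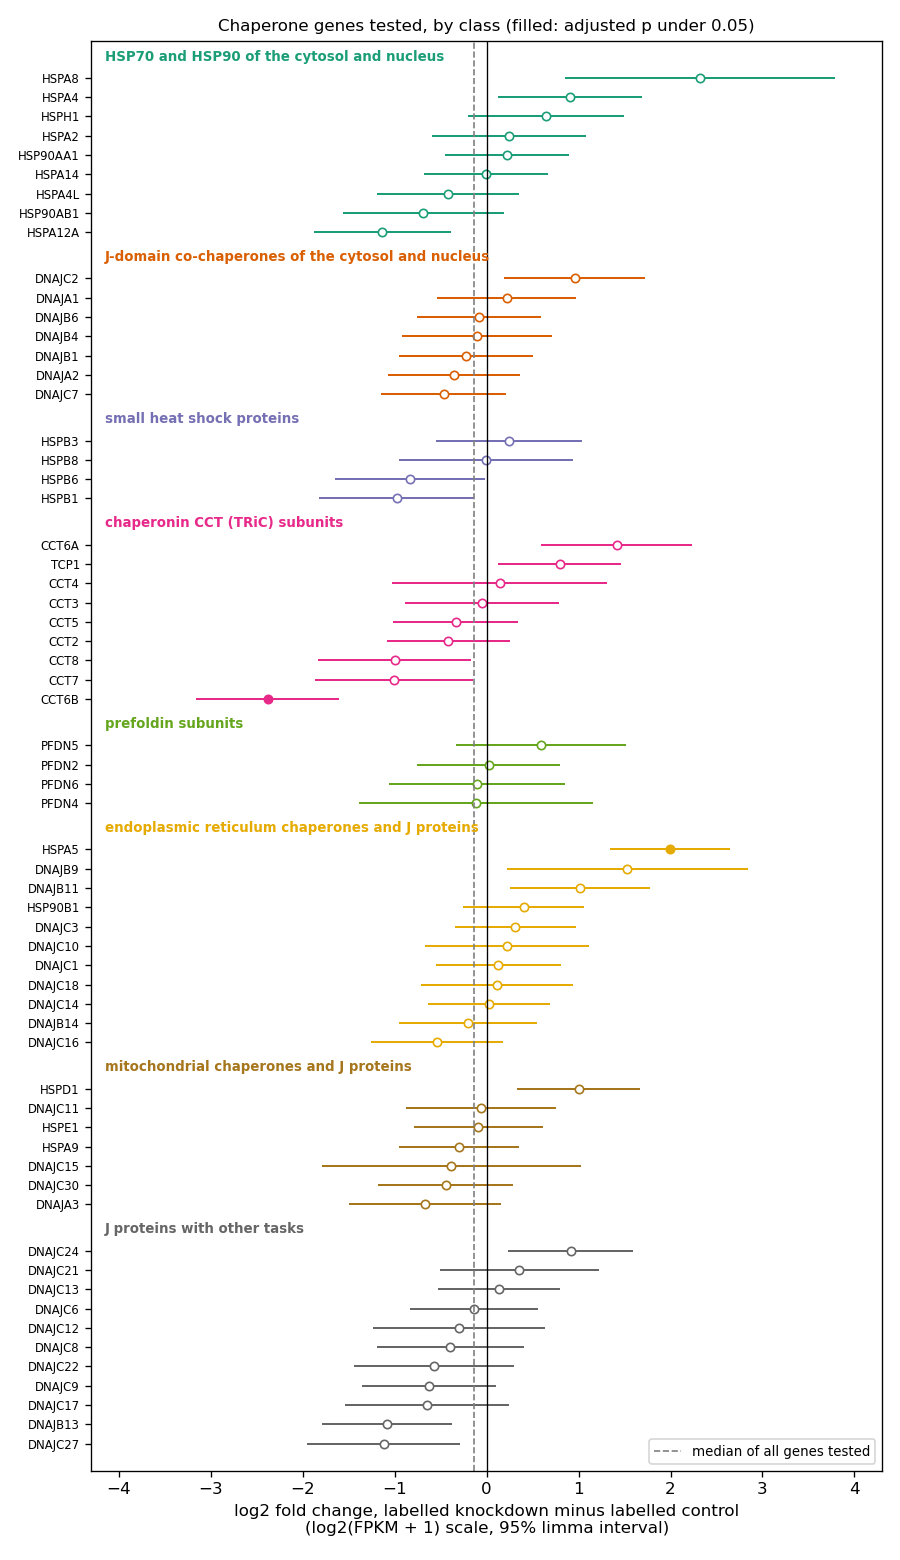
Log2 fold change (labelled knockdown minus labelled control, log2(FPKM + 1) scale) of the 62 chaperone genes tested, grouped by class, with the 95% interval from limma as a bar; filled points passed an adjusted p of 0.05, and the dashed line is the median of all genes tested (-0.13). HSPA5 (1.99) and CCT6B are the filled points, and HSPA8 (2.32) has the highest estimate and a wide interval; the fitted value of CCT6B is no bound on its fold, since it is listed at 0 in both labelled knockdowns.

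Among the genes of the endoplasmic reticulum, HSPA5 was about 4 times as high in the labelled knockdowns. HSPA5, the lumenal HSP70 that binds incoming chains and restrains the sensors of the unfolded protein response, is a single-transcript gene on chromosome 1 (265930044 to 265934959, Sscrofa11.1). It stood at 60.3 and 60.6 FPKM in labelled knockdowns 1 and 2, against 15.2 and 13.6 FPKM in labelled controls 1 and 2. The groups lay far apart and the libraries of each group close together, with means of 60.4 ± 0.202 and 14.4 ± 1.13 FPKM (SD, n = 2 each). Its log2 fold change was 1.99 (SE 0.26, 95% interval 1.35 to 2.64, limma with Benjamini-Hochberg adjusted p = 0.0177). By mean FPKM it ranked 990 among all gene names in the labelled knockdowns and 3076 in the labelled controls. The estimate was 1.75 to 2.16 over the alternatives run. The call was lost when labelled control 1, labelled knockdown 1 or labelled knockdown 2 was left out (limma, adjusted p = 0.0683, 0.147 and 0.0919).

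The other genes of that compartment had smaller differences, and none passed. HSP90B1, the lumenal HSP90, stood at 56.3 and 56.6 FPKM, against 45.6 and 39.6 FPKM in the labelled controls, a log2 fold change of 0.40 (interval -0.24 to 1.05, limma adjusted p = 0.361). Its libraries did not overlap, yet the interval of the fold change spans 0. In labelled knockdowns 1 and 2 the ratio of HSPA5 to HSP90B1 was 1.07 and 1.07, against 0.334 and 0.344 in labelled controls 1 and 2. A two-sided exact permutation test of that ratio gave p = 0.333, the smallest that 2 against 2 libraries allow.

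The lumenal J proteins that serve HSPA5 were also higher by estimate; they are named here after their values were seen. DNAJB9 (ERdj4), which is induced by the unfolded protein response and targets misfolded chains for disposal, stood at 65.2 and 25.8 FPKM, against 18.9 and 9.69 FPKM in the labelled controls. The 2 labelled knockdowns themselves differed 2.53-fold, and the log2 fold change of 1.53 had an SE of 0.53 (limma adjusted p = 0.134). DNAJB11 (ERdj3), which binds nascent chains with HSPA5, stood at 6.62 and 4.81 FPKM, against 2.66 and 1.96 FPKM in the labelled controls (log2 fold change 1.01, SE 0.31, limma adjusted p = 0.105). DNAJC3 (p58IPK), another lumenal partner, stood at 17.5 and 18 FPKM, against 13.8 and 14.4 FPKM, without overlap (log2 fold change 0.31). DNAJC10 (ERdj5), a reductase of wrong disulfides, and the membrane-bound DNAJC1 had overlapping groups. DNAJB14, DNAJC14, DNAJC16 and DNAJC18, J proteins of the membrane or lumen, had log2 fold changes of -0.21, 0.03, -0.54 and 0.11, and none passed. DNAJC16, with means of 0.729 FPKM and 1.52 FPKM, met the minimum for testing through the labelled controls alone. Its estimate is therefore not read as a fall. HSPA13, a divergent HSP70 of this compartment, was too low to test, with 0.693 and 0.723 FPKM, against 0.185 and 0.0502 FPKM in the labelled controls. Of the 11 genes of this class tested, 9 had a positive fold change, against 42.4% of all genes, and the class median was 0.22.

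No mitochondrial chaperone passed the test, and HSPD1 was the single positive estimate. The signs of HSPE1 and DNAJC15 turned without labelled control 1 (0.12 and 0.49), and that of HSPE1 also after median-ratio scaling (0.083). HSPA9, the HSP70 of the matrix and motor of protein import, stood at 45.7 and 44.0 FPKM in labelled knockdowns 1 and 2, against 52.6 and 58.7 FPKM in labelled controls 1 and 2. Its log2 fold change was -0.30 (interval -0.94 to 0.34, limma adjusted p = 0.482), with groups that did not overlap. HSPD1 (HSP60), the folding chamber of the matrix, stood at 28.8 and 24.9 FPKM, against 13.3 and 12.5 FPKM in the labelled controls. That is a log2 fold change of 1.00 (SE 0.27), which did not pass (limma adjusted p = 0.0844). HSPE1 (HSP10), the lid of that chamber, stood at 142 and 139 FPKM, against 173 and 129 FPKM, so that its groups overlapped (log2 fold change -0.089, interval -0.78 to 0.61).

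HSPD1 and HSPE1 are neighbours on chromosome 15, at 101360355 to 101373498 and 101374019 to 101376146, with 520 bases between them. In the ratio of HSPD1 to HSPE1 the labelled knockdowns stood at 0.204 and 0.179, against 0.0766 and 0.0969 in the labelled controls. The ratios did not overlap, and the exact permutation test gave its smallest possible two-sided p = 0.333. DNAJC15, a J protein of the import motor, showed the widest spread of a mitochondrial member: 119 and 121 FPKM in the labelled knockdowns, against 288 and 85.4 FPKM in the labelled controls, which differed 3.37-fold from each other. DNAJA3, the J partner of HSPA9, stood at 0.660 and 0.573 FPKM, against 2.23 and 1.04 FPKM in the labelled controls, and did not pass (log2 fold change -0.67, limma adjusted p = 0.25). DNAJA3 met the minimum for testing through the labelled controls alone, so its estimate is not read as a fall. DNAJC11, of the cristae-organizing complex, and DNAJC30 had log2 fold changes of -0.06 and -0.45. The median of the 7 genes of this class tested, DNAJA3 included, was -0.30, and it was -0.016 without labelled control 1. With a mean of 5 FPKM asked for, which leaves out DNAJA3, DNAJC11 and DNAJC30, it was -0.20.

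In the cytosol the constitutive HSP70 gene HSPA8 (HSC70) had the largest positive estimate of all chaperone genes, but its controls disagreed. HSPA8 (chromosome 9, 49982278 to 49986760) stood at 207 and 181 FPKM in labelled knockdowns 1 and 2, against 19.7 and 72.4 FPKM in labelled controls 1 and 2. The groups did not overlap, and the labelled controls differed 3.68-fold from each other. Its log2 fold change of 2.32 (SE 0.59, interval 0.86 to 3.78) did not pass (limma adjusted p = 0.0776). Without labelled control 2 the estimate was 3.23 and passed (limma adjusted p = 0.00736), and without labelled control 1 it was 1.40 and did not. Processed copies can share reads with HSPA8, which was not measured here.

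Other genes of the cytosolic HSP70 cycle had smaller estimates, and none passed. HSPH1 (HSP110), which exchanges its nucleotide, stood at 44.9 and 26.2 FPKM, against 22.2 and 20.8 FPKM in the labelled controls (log2 fold change 0.65, limma adjusted p = 0.272). HSPA4, a related exchange factor, stood at 5.82 and 4.43 FPKM, against 1.77 and 2.81 FPKM (log2 fold change 0.90, limma adjusted p = 0.135). HSPA4L, the relative of HSPA4 known from the testis, was more abundant, with 65.8 and 101 FPKM, against 109.9 and 109.3 FPKM in the labelled controls, and its estimate was negative (-0.42). HSPA12A, a divergent HSP70 named after its value was seen, stood at 6.99 and 6.61 FPKM, against 13.5 and 19.2 FPKM (log2 fold change -1.13, limma adjusted p = 0.0825). HSPA2, HSPA14 and the low genes HSPA12B and HSPA1L had overlapping groups. HSPA6, a stress-inducible HSP70 in human cells, stood at 2.27 and 0.780 FPKM, against 0.207 and 0.495 FPKM, below the mean needed for a test. The porcine HSP70.2 gene, outside the symbol pattern and named after its value was seen, stood at 4.56 and 4.38 FPKM, against 2.14 and 5.32 FPKM in the labelled controls, with overlap.

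The cytosolic HSP90 pair did not pass in either direction. HSP90AA1, the inducible form, stood at 43.4 and 51.2 FPKM, against 38.4 and 42.3 FPKM in the labelled controls (log2 fold change 0.22, interval -0.44 to 0.88, limma adjusted p = 0.618; -0.056 with TPM). HSP90AB1, the constitutive form, stood at 57.4 and 58.1 FPKM, against 125 and 70.0 FPKM (log2 fold change -0.69, interval -1.55 to 0.17, limma adjusted p = 0.26). HSP90AB1 has a pair of transcript rows, and labelled knockdown 1 has all of its value in the first (57.4 FPKM and 0) and labelled knockdown 2 all in the second (0 and 58.1 FPKM). The labelled controls divide it, 81.8 and 43.1 FPKM in labelled control 1 and 54.5 and 15.5 FPKM in labelled control 2. FPKM is scaled to transcript length, so the sum over the gene can depend on that division if the rows differ in length. That was not measured. Of the 9 cytosolic HSP70 and HSP90 genes tested, 5 had a positive and 4 a negative estimate, with a median of 0.22, which was -0.0076 when a mean of 5 FPKM was asked for.

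Cytosolic J proteins included some of the most abundant chaperone genes, and none passed the test. DNAJA1, a farnesylated partner of HSPA8, stood at 116 and 153 FPKM, against 132 and 99.9 FPKM in the labelled controls, with overlap. DNAJC7, which carries clients between HSP70 and HSP90, stood at 127 and 134 FPKM, against 162 and 202 FPKM (log2 fold change -0.47, limma adjusted p = 0.312). DNAJB1, the heat-inducible partner of HSP70, stood at 54.4 and 38.8 FPKM, against 51.5 and 56.4 FPKM, so that labelled knockdown 1 lay between the labelled controls. DNAJC2, which helps HSP70 at the ribosome and is named after its value was seen, stood at 27.5 and 21.5 FPKM, against 14.2 and 10.2 FPKM (log2 fold change 0.96, limma adjusted p = 0.117). DNAJA2, DNAJB4 and DNAJB6 had log2 fold changes of -0.36, -0.11 and -0.08. Of the 7 genes tested in this class 2 had a positive and 5 a negative estimate, with a median of -0.11, which was 0.048 after median-ratio scaling.

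**Figure D2:**
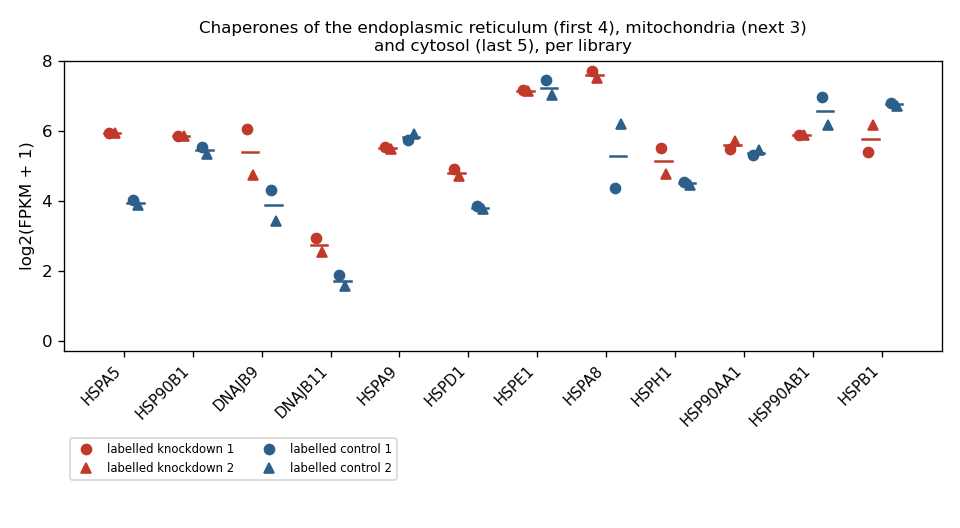
FPKM on a log2(FPKM + 1) axis of chaperone genes of the endoplasmic reticulum, the mitochondria and the cytosol in each library, labelled knockdowns in red and labelled controls in blue, with a line at the mean of the 2 values. HSPA5 separates the groups with little spread (60.3 and 60.6 against 15.2 and 13.6 FPKM), HSPA8 separates them with labelled controls at 19.7 and 72.4 FPKM, and HSPE1 overlaps.

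Subunits of the chaperonin CCT had estimates of both signs, and the call of CCT6B rests on listed zeros. CCT6B, known as the testis form of the zeta subunit (chromosome 12, 40205122 to 40230130), was listed at 0 in both labelled knockdowns, against 5.26 and 3.32 FPKM in labelled controls 1 and 2 (limma on log2(FPKM + 1), adjusted p = 0.0177). The ribosomal protein gene RPL3, which every cell uses, is also listed at 0 in this table, in labelled knockdown 1 and both labelled controls. CCT6A, the widely expressed form of the same subunit (chromosome 3, 16843801 to 16858819), stood at 12.4 and 20.4 FPKM, against 5.51 and 5.19 FPKM in the labelled controls. Its log2 fold change of 1.41 (SE 0.33) did not pass (limma adjusted p = 0.0643), except after median-ratio scaling (adjusted p = 0.0457). The sum of both forms was 12.4 and 20.4 FPKM, against 10.8 and 8.52 FPKM, and CCT6B made up 48.8% and 39.0% of it in labelled controls 1 and 2. Related copies can exchange reads, which was not measured. The CCT6B call was lost when labelled control 1, labelled knockdown 1 or labelled knockdown 2 was left out (limma, adjusted p = 0.0731, 0.163 and 0.0969).

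The most abundant CCT subunits were lower by estimate. CCT8 (theta) stood at 122 and 203 FPKM in labelled knockdowns 1 and 2, against 302 and 331 FPKM in labelled controls 1 and 2 (log2 fold change -1.0, SE 0.33, limma adjusted p = 0.125). CCT2 (beta) stood at 131 and 157 FPKM, against 199.8 and 184 FPKM (log2 fold change -0.42, limma adjusted p = 0.352). CCT5 (epsilon) stood at 28.1 and 34.7 FPKM, against 40.1 and 39.5 FPKM (log2 fold change -0.34). In each of these genes both labelled knockdowns lay below both labelled controls, and none passed. CCT7 (eta) did so as well, at 2.71 and 5.27 FPKM, against 8.68 and 8.76 FPKM (log2 fold change -1.01, limma adjusted p = 0.132). TCP1 (alpha) lay the other way, at 28.2 and 24.1 FPKM, against 14.5 and 14.6 FPKM (log2 fold change 0.80, SE 0.27, limma adjusted p = 0.127). CCT3 (gamma), at 1.27 and 2.34 FPKM, against 2.27 and 1.49 FPKM, and CCT4 (delta), at 2.46 and 7.21 FPKM, against 3.13 and 4.66 FPKM, overlapped.

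The assembled ring holds its subunits in equal number, and their listed FPKM, a value per length, was far from equal in every library. How well FPKM compares between genes here was not tested. ACTB, an actin gene that every cell uses, stood at only 0.768 and 0.695 FPKM, against 1.07 and 1.56 FPKM in the labelled controls. Leaving CCT6B aside, the most abundant subunit stood 103 and 86.8 times above the least abundant, CCT3, in labelled knockdowns 1 and 2, against 133 and 223 times in labelled controls 1 and 2. The ratio of CCT8 to TCP1 was 4.33 and 8.43 in the labelled knockdowns, against 20.8 and 22.6 in the labelled controls, without overlap (exact permutation test, two-sided p = 0.333, the smallest possible). Of the 9 CCT genes tested, 3 had a positive and 6 a negative estimate, with a median of -0.34. CCT6B is among the 6 and in the median. With a mean of 5 FPKM asked for, which leaves out CCT6B, CCT3 and CCT4, the median was -0.38.

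No prefoldin subunit passed the test. PFDN2 stood at 61.2 and 89.0 FPKM, against 81.0 and 65.0 FPKM in the labelled controls. PFDN4 stood at 20.9 and 29.8 FPKM, against 45.4 and 16.1 FPKM, and PFDN6 at 6.10 and 4.03 FPKM, against 7.52 and 3.85 FPKM. The groups overlapped in all of these. PFDN5 stood at 32.5 and 34.7 FPKM, against 30.6 and 15.7 FPKM (log2 fold change 0.59, interval -0.33 to 1.51, limma adjusted p = 0.346). PFDN1 was too low to test, at 0.987 and 1.33 FPKM, against 0.902 and 0.394 FPKM. VBP1, which encodes a further prefoldin subunit outside the symbol pattern, stood at 11.7 and 13.9 FPKM, against 14.2 and 9.71 FPKM.

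**Figure D3:**
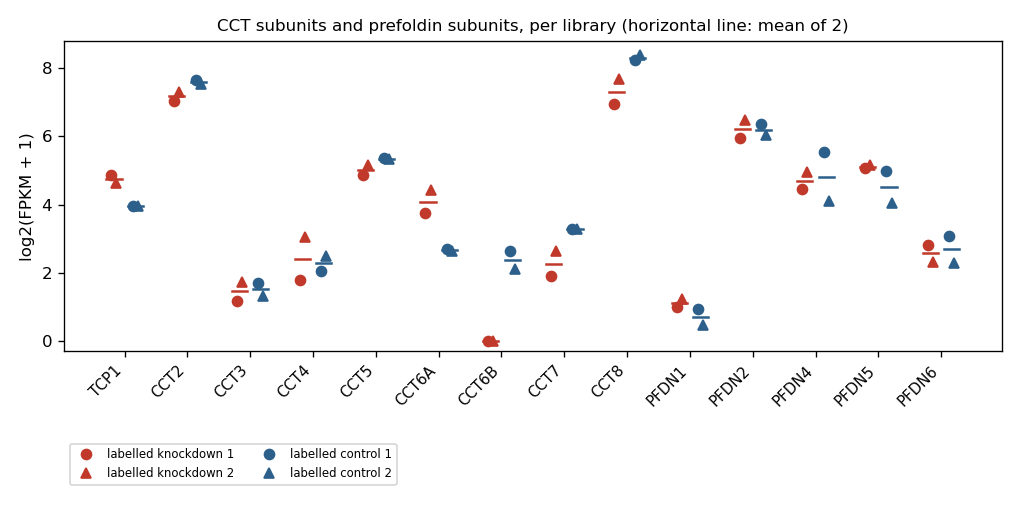
FPKM on a log2(FPKM + 1) axis of the 9 CCT genes and 5 prefoldin genes in each library, labelled knockdowns in red and labelled controls in blue, with a line at the mean of the 2 values. CCT6B is at 0 in both labelled knockdowns, TCP1 and CCT6A are higher there, CCT2, CCT5, CCT7 and CCT8 are lower, and levels differ between subunits within every library.

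Small heat shock proteins, which hold unfolded proteins without using ATP, were lower by estimate where they were abundant. HSPB1 (HSP27), named after its value was seen, stood at 41.0 and 70.4 FPKM in the labelled knockdowns, against 111 and 103 FPKM in the labelled controls (log2 fold change -0.98, SE 0.34, limma adjusted p = 0.135). HSPB6 (HSP20) stood at 3.15 and 5.50 FPKM, against 8.45 and 8.13 FPKM (log2 fold change -0.84, limma adjusted p = 0.166). HSPB3 and HSPB8 overlapped, and HSPB7 and HSPB9 were at 0 in 3 libraries each.

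J proteins with tasks outside general folding ranged from 1.12 below to 0.92 above 0 on the log2 scale, and none of the 11 tested passed. DNAJC21, a factor of ribosome assembly, stood at 116 and 173 FPKM, against 136 and 90.5 FPKM in the labelled controls, with overlap. DNAJC8, which is found with the spliceosome, stood at 95 and 117 FPKM, against 172 and 113 FPKM. Of the DNAJC8 value in labelled control 1, 114 FPKM came from a transcript row that is listed at 0 in the other libraries. DNAJC24, which serves the synthesis of diphthamide and is named after its value was seen, stood at 53.4 and 66.2 FPKM, against 31.2 and 30.9 FPKM (log2 fold change 0.92, SE 0.27, limma adjusted p = 0.102). DNAJC27, chosen in the same way, stood at 4.10 and 7.25 FPKM, against 12.9 and 13.3 FPKM (log2 fold change -1.12, SE 0.33, limma adjusted p = 0.104). Both genes kept their groups apart without passing. DNAJB13, known from sperm flagella and also named after its value was seen, stood at 0.786 and 0.569 FPKM, against 2.83 and 2.27 FPKM (log2 fold change -1.08, limma adjusted p = 0.0816). With a mean of 0.677 FPKM in the labelled knockdowns, DNAJB13 met the minimum for testing through the labelled controls alone. Its estimate is therefore not read as a fall. DNAJC9, a histone chaperone, stood at 22.5 and 31.0 FPKM, against 44.0 and 38.9 FPKM (log2 fold change -0.63, limma adjusted p = 0.226). DNAJC6, DNAJC12, DNAJC13, DNAJC17 and DNAJC22 lay between -0.65 and 0.13, and none passed.

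Set side by side, the compartments held different shares of the chaperone RNA. Summed over all 84 genes, FPKM was 2281 and 2577 in labelled knockdowns 1 and 2, against 2824 and 2379 in labelled controls 1 and 2, so the FPKM totals overlapped. The libraries differ in their FPKM sum over all genes. As a share of all TPM the 84 genes held 0.347% and 0.469%, against 0.577% and 0.479% in the labelled controls, without overlap. Labelled knockdown 2 and labelled control 2 lay close together. The TPM total includes the genes of the mitochondrial genome, at 39.9% and 26.9%, against 18.5% and 24.1% in the labelled controls. Their part in the lower shares was not tested. The endoplasmic reticulum class made up 10.8% and 7.83% of the summed FPKM of the 84 genes, against 4.76% and 4.74% in the labelled controls. CCT made up 14.4% and 17.6%, against 20.6% and 24.9%. The mitochondrial class made up 14.9% and 12.9%, against 18.9% and 12.2%, with overlap. Cytosolic HSP70 and HSP90 genes made up 21.3% and 18.8%, against 13.8% and 16.3%, and small heat shock proteins 2.17% and 3.10%, against 4.38% and 4.83%. The cytosolic HSP70 and HSP90 share was higher through HSPA8: without it the class summed to 279.8 and 303 FPKM in the labelled knockdowns, against 369.8 and 314 FPKM in the labelled controls. Without HSPA5 the endoplasmic reticulum class summed to 185 and 141 FPKM, against 119 and 99.2 FPKM, and still did not overlap. DNAJB9 held 65.2 and 25.8 FPKM of these sums, against 18.9 and 9.69 FPKM in the labelled controls. HSP90B1 held 56.3 and 56.6 FPKM, against 45.6 and 39.6 FPKM. Such sums follow the most abundant genes, so by themselves they do not show a rise across the class. The ratio of the endoplasmic reticulum sum to the mitochondrial sum was 0.724 and 0.608 in the labelled knockdowns, against 0.252 and 0.390 in the labelled controls.

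**Figure D4:**
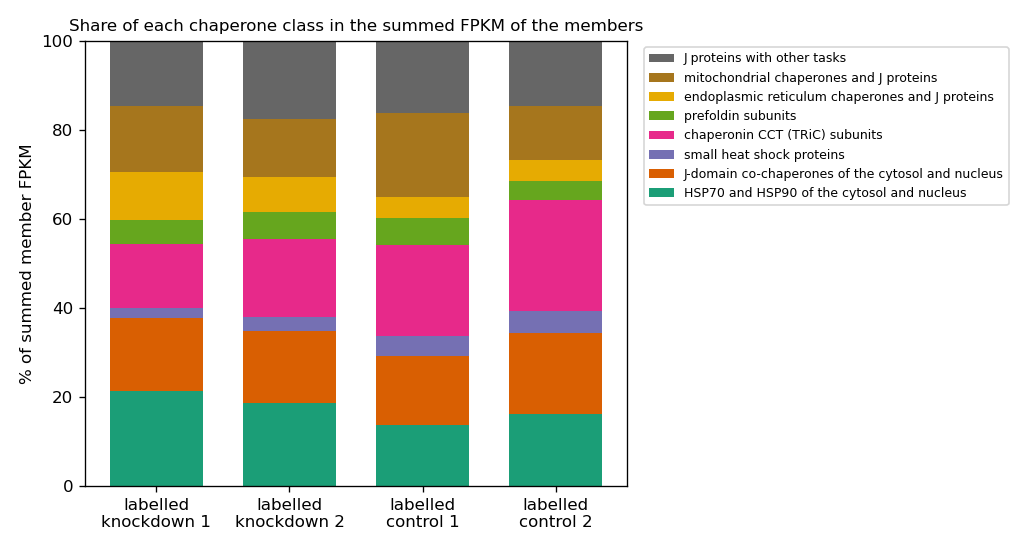
Share of each chaperone class in the summed FPKM of the 84 genes, in %, for each library; each bar sums to 100% but for 3 low genes of no class. The endoplasmic reticulum class is larger in the labelled knockdowns (10.8% and 7.83%) than in the labelled controls (4.76% and 4.74%), and the CCT class is smaller.

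The HSP70 of each compartment can be read within a library, where scaling cancels. HSPA5 over HSPA9 was 1.32 and 1.38 in labelled knockdowns 1 and 2, against 0.290 and 0.233 in labelled controls 1 and 2. HSPA8 over HSPA9 was 4.52 and 4.11, against 0.374 and 1.23. Both ratios kept the groups apart, and each exact permutation test gave its smallest possible two-sided p = 0.333. HSPA5 over HSPA8 was 0.292 and 0.335, against 0.775 and 0.188, so the groups overlapped and these data do not place either change above the other. The class medians lay 0.36 above the median of all genes tested for the endoplasmic reticulum, 0.36 above it for cytosolic HSP70 and HSP90, 0.17 below it for mitochondria and 0.20 below it for CCT, on the log2 scale. The distance was -0.29 for small heat shock proteins and -0.26 for J proteins with other tasks, further below than CCT. It was 0.026 for cytosolic J proteins and 0.094 for prefoldin. DNAJC16 of the endoplasmic reticulum, DNAJA3 in the mitochondrial class and CCT6B in the CCT class met the minimum for testing through the labelled controls alone. So did DNAJB13 among the J proteins with other tasks. With the 5 FPKM filter, which leaves out these genes, the distance was 0.51 for the endoplasmic reticulum and -0.043 for mitochondria. It was -0.23 for CCT and -0.20 for J proteins with other tasks. With TPM, in which every library has the same total, the median of all genes was -0.37 and the endoplasmic reticulum median turned to -0.0043, which is 0.37 above it. Over 12 alternatives, leaving out a library included, the distance from the median of all genes was 0.22 to 0.51 for the endoplasmic reticulum, 0.14 to 0.53 for cytosolic HSP70 and HSP90 and -0.34 to -0.092 for CCT. For mitochondria it was -0.25 to 0.073, and the positive value came without labelled control 1. For small heat shock proteins it was -0.76 to -0.050, and for J proteins with other tasks -0.58 to -0.14. Of the alternatives, the replicate block cannot move a fold change in this balanced design. The naming by the deposited names also gave the same class medians as the reported fit.

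Other genes of the folding pathways were read from lists outside the symbol pattern. Of 20 cytosolic co-chaperones and heat shock factors tested, PTGES3, UXT and URI1 passed as higher and none as lower. Of all genes tested, 5.11% passed as higher and 1.46% as lower. PTGES3 (p23), the co-chaperone that stabilises the closed form of HSP90, stood at 25.2 and 21.1 FPKM in the labelled knockdowns, against 1.78 and 2.34 FPKM in the labelled controls (log2 fold change 2.98, SE 0.28, limma adjusted p = 0.00996). UXT stood at 101 and 52.3 FPKM, against 6.91 and 13.4 FPKM (log2 fold change 2.79, limma adjusted p = 0.0304). URI1 stood at 24.7 and 9.25 FPKM, against 0.220 and 1.71 FPKM (log2 fold change 3.16, limma adjusted p = 0.0395). With a mean of 0.965 FPKM in the labelled controls, URI1 met the minimum for testing through the labelled knockdowns alone. Its call is therefore not read as a rise. UXT and URI1 are subunits of a prefoldin-like complex, and its subunit PDRG1, at 13.1 and 9.46 FPKM, against 3.33 and 4.99 FPKM, did not pass (limma adjusted p = 0.0791). Without labelled knockdown 1 the limma adjusted p of PTGES3, UXT and URI1 was 0.126, 0.207 and 0.229, and without labelled knockdown 2 it was 0.0769, 0.0953 and 0.0999, so all 3 calls were lost. Without labelled control 1 the calls of UXT (0.0799) and URI1 (0.0900) were lost as well, and with no filter on low values those of PTGES3 (0.0958), UXT (0.167) and URI1 (0.178). The replicate block ended those of UXT (0.0740) and URI1 (0.0871), and a pseudocount of 0.1 that of URI1 (0.0666). HSF1, the main heat shock transcription factor, stood at 0.980 and 1.53 FPKM, against 2.24 and 1.16 FPKM, and HSF2 at 2.64 and 4.15 FPKM, against 0.809 and 1.32 FPKM (limma adjusted p = 0.105).

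The 13 endoplasmic reticulum folding and stress genes tested outside the pattern had no call with limma, with 1 higher and 2 lower at an unadjusted p under 0.05, and a median log2 fold change of -0.35. Both labelled knockdowns lay above both labelled controls in 2 of the 13 genes and below in 7, against 24.7% and 35.8% of all genes tested. The 2 lower genes were CRELD2 and PDIA3. CRELD2 stood at 1.96 and 2.31 FPKM, against 7.77 and 4.74 FPKM in the labelled controls (log2 fold change -1.18, limma adjusted p = 0.0893). PDIA3, a disulfide isomerase for glycoproteins, stood at 90.0 and 123 FPKM, against 203 and 224 FPKM in the labelled controls (log2 fold change -1.01, limma adjusted p = 0.0946). SEC63, a J protein of the translocation channel that works with HSPA5, had the lowest adjusted p of these genes, at 13.7 and 15.2 FPKM, against 6.83 and 6.0 FPKM (log2 fold change 1.06, limma adjusted p = 0.0775). The groups did not overlap in CRELD2, PDIA3 or SEC63, and the estimate of SEC63 had the opposite sign to the others. MANF, a secreted stress-induced protein, stood at 373 and 308 FPKM, against 382 and 352 FPKM. DDIT3 (CHOP), a late target of the unfolded protein response, stood at 456 and 71.7 FPKM, against 25.4 and 155 FPKM, with overlap and a 6.10-fold difference between the labelled controls. XBP1 and HERPUD1, other targets of that response, were under 1 FPKM in every library. Of 7 mitochondrial folding and protease genes tested none passed (limma), with 1 higher and 0 lower at an unadjusted p under 0.05.

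The 22 chaperone genes not tested were at most 2.27 FPKM in any library. Listed at 0 in at least 1 library were 12 of the 84 genes, of which CCT6B was the only 1 tested. Besides HSPA6, HSPA12B, HSPA1L, HSPA13, PFDN1, HSPB7 and HSPB9, the genes not tested were DNAJA4, DNAJB2, DNAJB3, DNAJB5, DNAJB7, DNAJB8, DNAJB12, DNAJC4, DNAJC5, DNAJC5B, DNAJC5G, DNAJC19, DNAJC28, HSPB11 and CCT8L2. DNAJC5, the cysteine string protein of secretory vesicles, was at or below 0.0570 FPKM in every library. At the other end, 9 of the 84 genes averaged 100 FPKM or more, among them CCT8, CCT2, DNAJC7, HSPE1 and DNAJA1.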

How the data were processed

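RNA of 4-cell porcine embryos was sequenced in 4 libraries, prepared with a SMARTer mRNA-seq kit per the labels' protocols. The submitters' processing notes name StringTie 2.1.7, Bowtie2 2.3.5, cutadapt and, as the genome, Sscrofa11.1. What each program did, which annotation release served and any filters are not given in the sources used. The deposited table has 35395 transcript rows with 3 values a library, per the file headers. Deposited coverage, a signal, is read depth per base and is not scaled. Deposited FPKM is the authors' value per transcript length and per library size; its sum is 489479 to 657450 in a library. Deposited TPM was scaled by the authors to a fixed sum. Read counts were not used, and coverage over FPKM is 6.07 to 8.83 a library, which is the aligned bases in gigabases if computed as StringTie does.

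Rows were named by RefSeq accession (32816 rows, and 4 by another version), by a symbol as ID (2305), by the table's name (246) or had none (24); all 84 chaperone genes matched RefSeq, whose coordinates (Sscrofa11.1, 1-based, whole gene) are given. FPKM was summed per gene; 18 of the 84 genes have more than 1 transcript row. Genes averaging 1 FPKM or more entered a limma fit (version 3.58.1, R 4.3.3, trended eBayes) of log2(FPKM + 1), group as the only term, two-sided, Benjamini-Hochberg over all 9850 genes, threshold 0.05, with 2 residual degrees of freedom. A count test had been planned for counts; the table holds FPKM, so limma was used. The fit was tested on simulated data. Protein and promoter sequences were not used here. Ratios within a library were compared with scipy 1.17.1 (exact permutation test). Values in every library are given for TFAP2C, genes past the threshold, the head chaperones of each compartment, all CCT and prefoldin subunits and the 10 genes of highest mean. Members, lists and the rule for named genes were chosen with earlier results of these data known. Alternatives were another pseudocount and filters, TPM, median-ratio and quantile scaling, the table's own names, a replicate block and leaving out each library.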

Additional observations from a re-analysis of the deposited data

How the results depend on the processing

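HSPA5 and CCT6B passed without labelled control 2 and with no other library left out. Counts of chaperone genes higher ranged from 0 to 2 and lower from 0 to 1 when a library was left out; counts of all genes ranged from 0 to 463 higher and 0 to 42 lower. Without labelled knockdown 1, limma called 0 of 9674 genes (unadjusted p under 0.05 in 891 higher and 828 lower); when labelled knockdown 2 was left out it called 0 of 9874 (1381 and 1285). All genes gave 503 higher and 144 lower as reported, 312 and 62 with a pseudocount of 0.1, 320 higher with a minimum mean of 5 FPKM, 78 lower after median-ratio scaling, 70 and 34 with transcript rows (added after seeing the data), and 0 and 0 with no filter (limma; 1930 and 1766 unadjusted). Chaperone genes gave 2 higher after median-ratio scaling, 0 lower with the 5 FPKM filter, which leaves out CCT6B, 0 and 0 with transcript rows (limma; 9 and 5 unadjusted), and 0 and 0 with no filter (limma; 10 and 7 unadjusted). HSPA5 kept its call with a pseudocount of 0.1, the 5 FPKM filter, TPM, median-ratio and quantile scaling and the table's own names.

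The numbers shared between groups are not stated to pair libraries. With the replicate block limma called 125 genes higher and 8 lower, and 0 and 0 chaperone genes (9 and 7 unadjusted; HSPA5 and CCT6B adjusted p = 0.0534). The deviations of same-numbered libraries correlated at r = -0.143 over 9850 genes, which are not independent; a crossed replicate block, added after seeing the data, called 611 genes higher and 119 lower.

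Class medians of the log2 fold change moved as follows. For the endoplasmic reticulum it was 0.27 with a pseudocount of 0.1, 0.36 with the 5 FPKM filter, -0.0043 with TPM, 0.36 after median-ratio and 0.18 after quantile scaling, and 0.13 to 0.33 when a library was left out. For small heat shock proteins it was -0.91 with the 5 FPKM filter, -0.049 with no filter, -0.66 with TPM, -0.30 after median-ratio and -0.47 after quantile scaling, and -0.81 to -0.28 without a library. For mitochondria it was -0.20 with the 5 FPKM filter, -0.089 with no filter, -0.59 with TPM, -0.13 after median-ratio scaling and -0.39 to -0.016 without a library. For cytosolic J proteins it was -0.38 with TPM, 0.048 after median-ratio scaling and -0.23 to -0.0086 without a library. Signs near 0 turned: with TPM, HSP90AA1 was at -0.056, DNAJA1 -0.066, CCT4 -0.098 and PFDN2 -0.26; after median-ratio scaling, HSPE1 was at 0.083, CCT3 0.055, PFDN4 0.049 and PFDN6 0.041. Without a library in turn CCT3 ranged from -0.33 to 0.23, CCT4 -0.48 to 0.76, DNAJB1 -0.46 to 0.013, DNAJC15 -1.26 to 0.49, HSPE1 -0.30 to 0.12, PFDN2 -0.24 to 0.29, PFDN4 -0.84 to 0.60 and PFDN6 -0.51 to 0.30. The causes were not tested. Depth per gene is unknown without counts.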
